A study of Mus musculus with 6 samples.

Results

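Fibroblast growth factor (Fgf) signalling genes were followed in mouse embryos that lack normal *Zic2* function. The set holds every gene on the array whose symbol is *Fgf*, *Fgfr*, *Spry* or *Spred* followed by a number, together with *Fgfrl1*, *Dusp4*, *Dusp6*, *Etv1*, *Etv4*, *Etv5* and *Il17rd*. Its genes were taken by name and not by a measured value, but earlier results of these data were known when it was chosen. It came to 39 of 19057 named genes, with 70 of 45281 probes. The 22 genes with an *Fgf* symbol are called ligands here, though some, such as *Fgf13*, encode intracellular factors. A further 5 encode receptors and 12 encode feedback inhibitors or response genes. The ligands were *Fgf1* to *Fgf18* and *Fgf20* to *Fgf23*. *Spry1* had no probe under its symbol and was not analysed here.

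RNA was taken from pools of 8 stage-matched whole embryos at E8.0 to E8.5, with 3 pools of *Zic2* iso/iso embryos, labelled as mutant, and 3 wildtype pools from the same crosses between heterozygous parents. The *iso* allele carries a stop codon that disrupts the fifth zinc finger of ZIC2, a zinc finger transcription factor. It arose by ENU mutagenesis of C57BL/6J mice and was kept on a C3H/HeH background, so that a piece of distal chromosome 14 around *Zic2* travels with it. Both sexes were pooled, all tissues of the embryo were read together, and no treatment was given.

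Fgf ligands are secreted proteins that bind receptor tyrosine kinases with the help of heparan sulfate and switch on the Ras-ERK cascade inside the cell. The cascade induces its own brakes, among them the Sprouty and Spred proteins and the phosphatase DUSP6, and ETS transcription factors of the Pea3 group (ETV1, ETV4 and ETV5), whose transcripts are widely used as a readout of the signal. In the early embryo the pathway is known for its roles in gastrulation, in the growing tail end, at the boundary of midbrain and hindbrain, at the front edge of the neural plate and in the heart field.

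Each pool was read on 1 Illumina Mouse WG6 v2 array, on which a probe gives an intensity for a transcript. The intensities were put on the log2 scale and quantile normalised. Every difference below is *Zic2* iso/iso minus wildtype on that log2 scale, fitted with limma over all 45281 probes with Benjamini-Hochberg adjustment. Where a gene has several probes, the brightest stands for it. A background level of 7.47 was taken from probes for families with no known role in such embryos, such as olfactory receptors (the 95th percentile of their means). By the mean of each genotype, 22 of the 39 genes were above this level in both genotypes, 3 (*Fgf12*, *Fgf23* and *Fgfr3*) only in the mutant pools and 14 in neither. A probe at the background level does not show that its gene is silent, and no change could be read there. Background was not subtracted, so that differences of dim probes are smaller than those of the transcripts. In whole embryos, fewer cells that use a gene and less RNA in each of them cannot be told apart. An exact permutation test, two-sided, cannot give less than 0.1 with so few pools, which the labels call replicates of a genotype.

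*Zic2* itself had log2 values of 8.27, 8.06 and 8.00 in wildtype pools 1 to 3 and 7.64, 7.57 and 8.01 in mutant pools 1 to 3. The third mutant pool lay within the wildtype range. The difference was −0.37 (standard error 0.11, adjusted p = 0.61 from limma). A second *Zic2* probe, close to the background level, had a difference of 0.12 (means of 7.42 and 7.54), and the mean of both probes gave −0.12. A stop codon need not lower the transcript, so neither probe is a test of the labels.

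No gene of the set passed an adjusted p of 0.05, in either direction. Over the whole array 0.0442% of probes (20 of 45281) passed, 0.0398% as lower and 0.00442% as higher in mutant pools. At an unadjusted p under 0.05 there were 5 of the 70 probes (7.14%), against 6.02% of all probes. Mutant and wildtype pools did not overlap for 3 of the 70 probes (4.29%), while this was so for 10.6% of all probes. The 3 were that of *Fgf15*, lower in the mutant pools (5.46% of all probes), and one each of *Fgfr2* and *Fgfr4*, higher in them (5.18% of all probes). The median difference over the 39 genes was 0.028, over the 22 ligands 0.0098, over the 5 receptors 0.098 and over the 12 response genes 0.0096, beside 0.00026 over all probes. These medians include genes at the background level. Over the genes above it in at least 1 genotype, 3 of them in mutant pools only, the median was 0.055. It was 0.032 for such ligands, 0.076 for receptors and 0.063 for response genes, beside 0.00077 over all probes above that level. Among the 25 genes above the background level in at least 1 genotype, 17 differences were positive and 8 negative, and they ran from −0.30 (*Fgf15*) to 0.24 (*Fgf7*). The 17 include the 3 genes above that level in mutant pools only, whose sign was fixed by this filter. The 95% confidence intervals of the 25 genes, each for 1 gene and without adjustment, reached down to −0.48 and up to 0.41 at most.

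**Figure D1:**
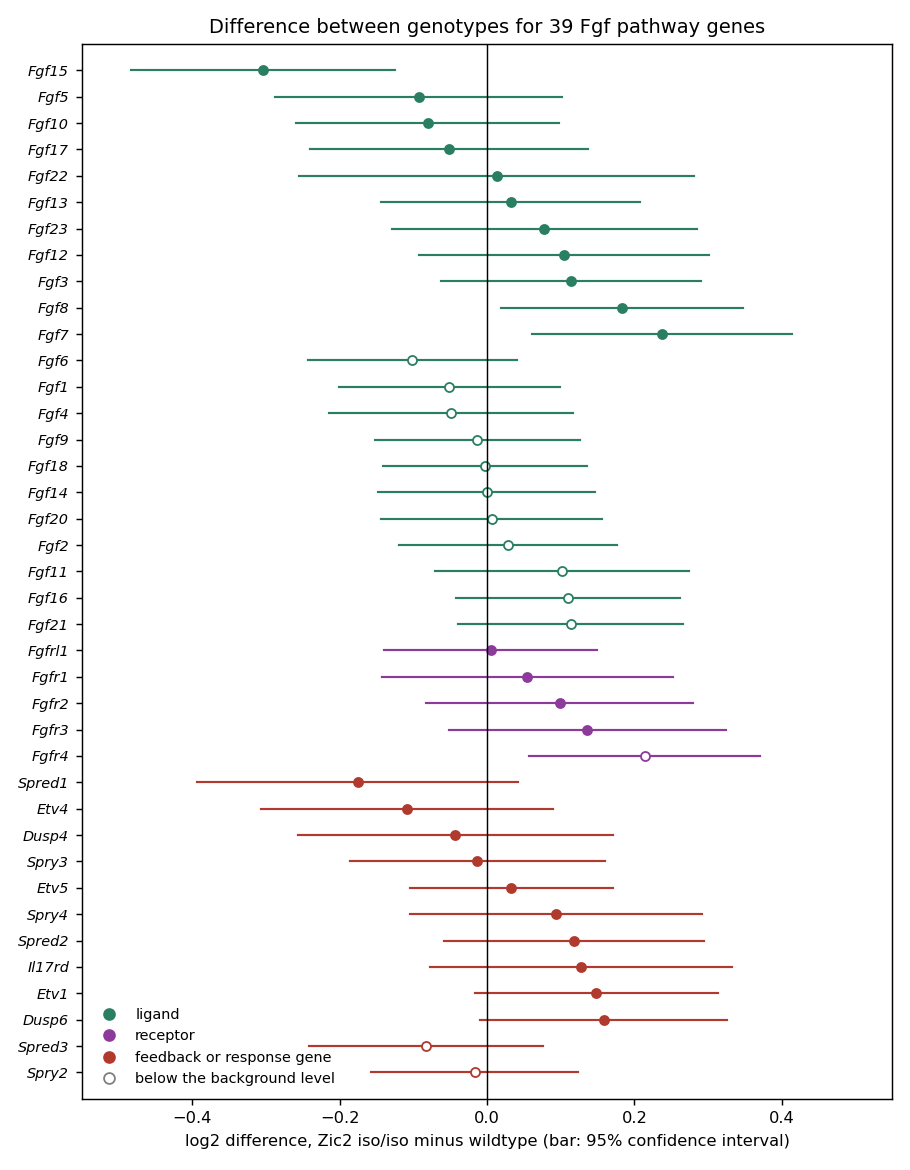
Difference between genotypes on the log2 scale (horizontal axis, Zic2 iso/iso minus wildtype) for each of the 39 genes, with its 95% confidence interval from limma. Filled points are genes above the background level in at least 1 genotype and open points are genes below it. The intervals of Fgf15, Fgf7, Fgf8 and Fgfr4 leave out 0, but none of these genes passed the test adjusted over all probes.

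*Fgf15*, the mouse counterpart of human *FGF19* and a ligand of the embryonic neural tube, had the largest difference of the set. Its probe read 8.747, 8.747 and 8.787 in the wildtype pools and 8.270, 8.603 and 8.497 in the mutant pools. All 3 mutant pools were below all 3 wildtype pools, and the first mutant pool was the lowest. The deposited intensities were 405.2, 440.4 and 415.2 in wildtype and 377.7, 387.5 and 323 in mutant pools. They did not overlap either, but there the third mutant pool was the lowest. The means were 8.76 ± 0.02 and 8.46 ± 0.17 (SD, n = 3 pools each), and the exact permutation p was 0.1. The difference of −0.30 (standard error 0.08, 95% interval −0.48 to −0.12) had an unadjusted p of 0.0030 and an adjusted p of 0.53 from limma, so that it did not pass. The mean intensity in mutant pools was 0.81 of that in wildtype pools. *Fgf15* was read by 1 probe alone.

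*Fgf8* encodes the ligand best known from the midbrain-hindbrain boundary, the front of the neural plate and the tail bud, and its probe was far above the background level. It read 10.16, 10.16 and 10.25 in wildtype pools and 10.22, 10.44 and 10.45 in mutant pools. On this normalised scale mutant pools 2 and 3 were above every wildtype pool, and mutant pool 1 fell within their range. The deposited intensities, not scaled between arrays, were 1056.5, 1184.1 and 1160.9 in wildtype and 1494.5, 1382.7 and 1217.8 in mutant pools. There the genotypes did not overlap, and mutant pool 1 was the highest. The difference was 0.18 (standard error 0.08, 95% interval 0.020 to 0.35, unadjusted p = 0.031, adjusted p = 0.79 from limma). Without mutant pool 1 it was 0.26, and the mean of both *Fgf8* probes, of which the dimmer was below the background level, gave 0.088.

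*Fgf17*, a close relative of *Fgf8* with overlapping sites of expression, stood at 9.54, 9.68 and 9.53 in wildtype and 9.64, 9.33 and 9.63 in mutant pools. The genotypes overlapped, with a difference of −0.051 (95% interval −0.24 to 0.14). The sign turned without mutant pool 2, which was the lowest (0.049). *Fgf18*, the third gene of this subfamily, was below the background level with both of its probes.

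Of the subfamily that acts mainly on epithelial receptors, *Fgf7* had the second largest difference. Its probe was close to the background level, at 7.52, 7.53 and 7.71 in wildtype and 7.89, 7.68 and 7.91 in mutant pools. On this normalised scale 1 mutant pool was just below the highest wildtype pool. The deposited intensities did not overlap (highest wildtype pool 197.9, lowest mutant pool 204.5). The difference was 0.24 (standard error 0.08, 95% interval 0.061 to 0.41, unadjusted p = 0.013, adjusted p = 0.72 from limma), and with normexp background correction it was 0.36. *Fgf10*, a ligand of the pharyngeal and limb mesoderm, read 9.33, 9.07 and 9.13 in wildtype and 9.07, 9.21 and 9.01 in mutant pools. Its genotypes overlapped (difference −0.081, 95% interval −0.26 to 0.098), and its other 2 probes had differences of 0.020 and 0.054. *Fgf3*, which acts in ear induction and in the hindbrain, was near the background level and read 7.73, 7.42 and 7.65 in wildtype and 7.68, 7.75 and 7.70 in mutant pools (difference 0.11, 95% interval −0.062 to 0.29, and 0.024 without wildtype pool 2). *Fgf22* spread more widely over the wildtype pools than any other ligand, at 8.56, 8.25 and 7.96, and its mutant pools at 8.18, 8.42 and 8.21 lay inside that range.

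The remaining ligands gave less to read. *Fgf13*, which belongs to the intracellular Fgf homologous factors that bind sodium channels, read 9.84, 9.70 and 9.80 in wildtype and 9.68, 9.79 and 9.97 in mutant pools, with a difference of 0.032. *Fgf5*, a ligand of the epiblast, hardly rose above the background level in either genotype (means of 7.58 and 7.49, difference −0.093). *Fgf12* and *Fgf23* had means above it in the mutant genotype only, at 7.50 and 7.51, and both overlapped with wildtype pools. For both genes wildtype pool 2 was above the background level and mutant pool 2 below it. Below it in both genotypes were *Fgf1*, *Fgf2*, *Fgf4*, *Fgf6*, *Fgf9*, *Fgf11*, *Fgf14*, *Fgf16*, *Fgf18*, *Fgf20* and *Fgf21*, with differences of −0.10 to 0.11. *Fgf4*, a ligand of the primitive streak, was among them at 7.25 and 7.20. *Fgf14* lies distal to *Zic2* on chromosome 14, with 6 protein-coding genes between them in the RefSeq annotation of GRCm38.p6. Its brightest probe stood at 7.45 in both genotypes, and the segment carried with *iso* cannot be told apart from the mutation itself. In all, no ligand gene passed the test, and 3 of the 22 had an unadjusted p under 0.05, where 6.02% of all probes had such a p.

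**Figure D2:**
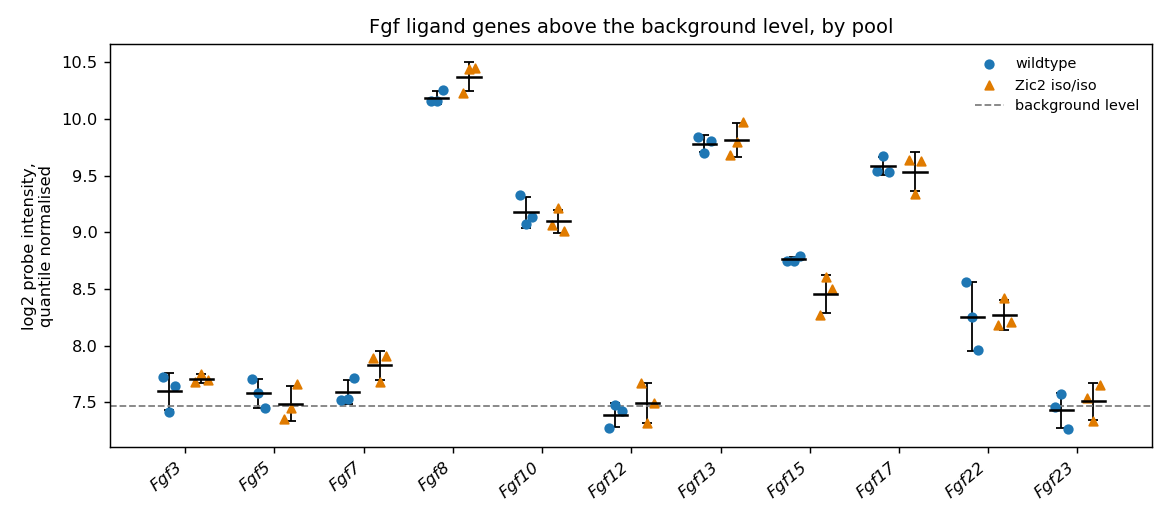
Log2 intensity after quantile normalisation (vertical axis) of the 11 Fgf ligand genes above the background level in at least 1 genotype, in each wildtype pool (circles) and each Zic2 iso/iso pool (triangles). Bars give the mean with the SD over 3 pools, and a dashed line marks the background at 7.47. The 3 mutant pools of Fgf15 lie below its wildtype pools, and for every other ligand drawn the genotypes overlap.

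No receptor gene passed the test, and 1 of 5 had an unadjusted p under 0.05, where 6.02% of all probes had such a p. This was *Fgfr4*, with means below the background level in both genotypes. *Fgfr2*, a tyrosine kinase receptor of epithelia and neural tissue, read 11.93, 11.69 and 11.87 in wildtype and 12.05, 11.94 and 11.80 in mutant pools with its brightest probe. The genotypes overlapped, with a difference of 0.098 (standard error 0.08, 95% interval −0.082 to 0.28, adjusted p = 0.95 from limma). A second *Fgfr2* probe read 7.76, 7.93 and 7.85 in wildtype and 7.93, 7.98 and 8.21 in mutant pools. There the 3 mutant pools were above the 3 wildtype pools by a margin that vanishes on rounding (difference 0.20, unadjusted p = 0.034, adjusted p = 0.80), and the other 2 probes had differences of 0.0097 and 0.061. *Fgfrl1*, a receptor without a kinase domain, read 8.87, 8.93 and 8.87 in wildtype and 8.84, 8.86 and 8.98 in mutant pools (difference 0.0053, 95% interval −0.14 to 0.15).

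*Fgfr1*, the main receptor of the mesoderm, and *Fgfr3* were close to the background level, so that little could be read from them. *Fgfr1* had means of 7.64 and 7.69 (difference 0.055) and *Fgfr3* of 7.43 and 7.56 (difference 0.14). Without mutant pool 2 the difference of *Fgfr3* was 0.037. *Fgfr4* had means below it in both genotypes, with 7.18, 7.23 and 7.10 in wildtype and 7.41, 7.28 and 7.47 in mutant pools. These pools did not overlap, and the difference of 0.21 (standard error 0.07, unadjusted p = 0.011, adjusted p = 0.70 from limma) was between means that both lie in the background, so that no fold is given.

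The feedback and response genes hold the readout of the pathway, and none of the 12 passed the test or had an unadjusted p under 0.05. Over all probes 6.02% had such a p. *Dusp6*, which encodes the ERK phosphatase induced by Fgf signals, read 12.21, 12.19 and 12.31 in wildtype and 12.37, 12.27 and 12.53 in mutant pools. Mutant pools 1 and 3 were above every wildtype pool and mutant pool 2 was within their range. The difference was 0.16 (standard error 0.08, 95% interval −0.0095 to 0.33, unadjusted p = 0.062, adjusted p = 0.86 from limma). Its other probes, at 0.034 and 0.056, were much dimmer, and the mean of the 3 probes gave 0.083. Without mutant pool 3 the difference was 0.089. *Dusp4*, a nuclear phosphatase of the same family, read 10.33, 10.41 and 10.60 in wildtype and 10.39, 10.22 and 10.60 in mutant pools (difference −0.043, 95% interval −0.26 to 0.17), and its 3 dimmer probes had differences of 0.038 to 0.080.

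Of the Pea3 genes, *Etv4* read 9.82, 9.87 and 9.79 in wildtype and 9.63, 9.57 and 9.95 in mutant pools. On this normalised scale the first 2 mutant pools were below and the third above all wildtype pools. The deposited intensities were 839.4, 965.3 and 837.9 in wildtype and 990.4, 753.1 and 864.4 in mutant pools. There the first mutant pool was the highest. The difference was −0.11 (95% interval −0.31 to 0.090). Without mutant pool 3 it was −0.23, at an adjusted p of 0.75 from limma. *Etv5* kept close together over all 6 pools, at 9.39, 9.43 and 9.35 in wildtype and 9.46, 9.38 and 9.43 in mutant pools, and its difference of 0.033 had an interval of −0.11 to 0.17. *Etv1*, close to the background level, had a difference of 0.15 (95% interval −0.017 to 0.31, adjusted p = 0.88), with 0.16 and 0.021 at its other 2 probes.

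Among the inhibitors, *Spred1*, which restrains Ras, stood at 10.15, 10.10 and 10.12 in wildtype and 9.67, 10.11 and 10.07 in mutant pools. On this normalised scale the first mutant pool alone was far below the rest. The deposited intensities were 1056, 1138 and 1058 in wildtype and 1019, 1101 and 939 in mutant pools, where the third mutant pool was the lowest. The difference of −0.18 (standard error 0.10, adjusted p = 0.90 from limma) shrank to −0.035 without the first mutant pool, and it was −0.090 without normalization between arrays. *Il17rd*, whose product Sef holds back Fgf signals at the membrane, was above the background level with 2 probes of like brightness that differed in sign. One read 8.46, 8.30 and 8.16 in wildtype and 8.61, 8.30 and 8.38 in mutant pools (difference 0.13), and the other 8.36, 8.45 and 8.36 in wildtype and 8.47, 7.89 and 8.23 in mutant pools (difference −0.20). Neither had an unadjusted p under 0.05 (0.20 and 0.11). *Spred2* and *Spry4* were close to the background level, with differences of 0.12 and 0.094, and *Spry3* had means of 8.17 and 8.16. *Spred3* and *Spry2*, the latter at 7.13 and 7.11, did not reach that level in either genotype.

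**Figure D3:**
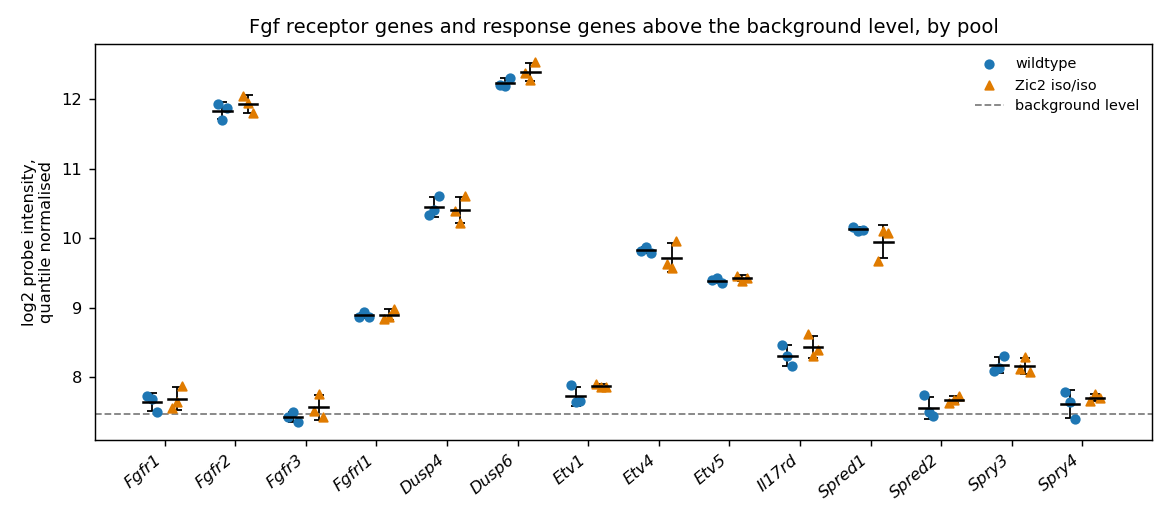
Log2 intensity after quantile normalisation (vertical axis) of the 4 Fgf receptor genes (left) and 10 feedback and response genes above the background level in at least 1 genotype, in each wildtype pool (circles) and each Zic2 iso/iso pool (triangles). Bars give the mean with the SD over 3 pools, and a dashed line marks the background at 7.47. The genotypes overlap for all 14 genes drawn, and the low mutant pool of Spred1 is the first.

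Taking the probes one by one, 40 of the 70 were above the background level in at least 1 genotype and 30 below it. None passed an adjusted p of 0.05. Of the genes above it, *Fgf15* and *Fgf7* had the widest differences, and each was read by 1 probe. For genes with several probes the brightest one often stood alone: *Fgf8*, *Fgf17*, *Fgf22*, *Spred2* and *Fgfr1* had their other probes below or near the background level, so that no second reading of these transcripts was had. Among genes with at least 2 probes well above it, *Dusp4*, *Fgf10* and *Etv5* had differences of −0.081 to 0.060 there, the 2 brightest probes of *Dusp6* had 0.16 and 0.034, and those of *Il17rd* had 0.13 and −0.20.

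**Figure D4:**
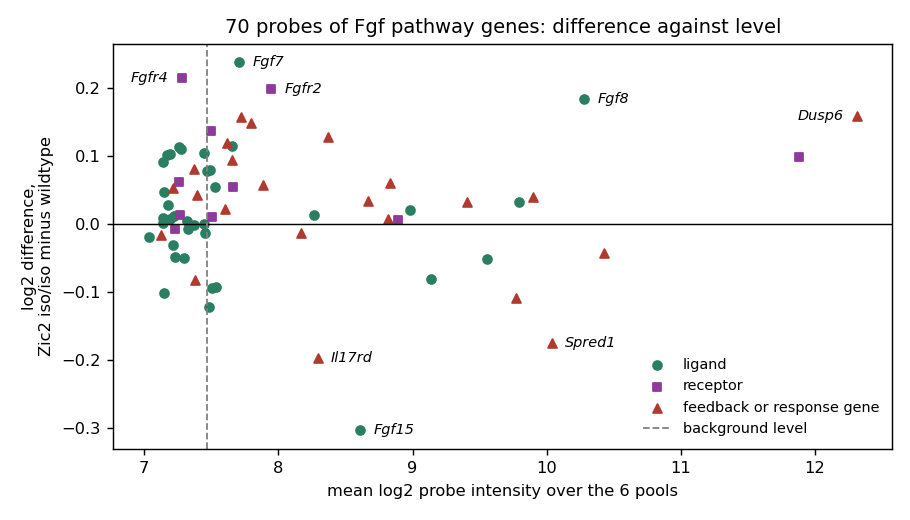
Difference between genotypes on the log2 scale (vertical axis, Zic2 iso/iso minus wildtype) against the mean log2 intensity over the 6 pools (horizontal axis) for the 70 probes of ligands (circles), receptors (squares) and feedback or response genes (triangles). A dashed line marks the background at 7.47. The difference of Fgf15, at −0.30, lies farthest from 0, and the labelled probes of Fgfr4 and Fgfr2 are those whose pools did not overlap.

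Genes that carry the signal from the receptor to ERK were taken from a list of 36 names, of which 27 had a probe and 20 were above the background level in at least 1 genotype. None of the 27 passed the test, and 2 had an unadjusted p under 0.05, both lower (6.02% of all probes had such a p). The median difference was 0.0014. *Flrt1*, which encodes a membrane protein that can bind Fgf receptors, came nearest to the threshold. It read 8.47, 8.19 and 8.29 in wildtype and 7.70, 7.91 and 7.74 in mutant pools, without overlap. The difference was −0.53 (standard error 0.08, 95% interval −0.72 to −0.35, adjusted p = 0.065 from limma), and it passed with normexp background correction, a variance stabilising normalisation or a prior variance that follows intensity (adjusted p = 0.029, 0.026 and 0.017). Averaged over the probes of the gene it was −0.28 (adjusted p = 0.55). *Map2k1*, which encodes the kinase MEK1, had a difference of −0.21 (adjusted p = 0.70) with a mutant mean of 7.43, below the background level. That of the adaptor gene *Frs3* was −0.20 (adjusted p = 0.87), likewise with a mutant mean below that level (7.40), and it was −0.081 without wildtype pool 3. The 9 brightest, such as *Nras*, *Map2k2*, *Ptpn11* and *Flrt3*, had differences of −0.17 to 0.16.

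Other genes known to respond to Fgf or ERK signals came from a list of 22 names, of which 20 had a probe and 15 were above the background level in at least 1 genotype. None passed the test. At an unadjusted p under 0.05, 4 were lower and 1 higher, where 6.02% of all probes had such a p, and the median difference was −0.011. The largest were those of *Egr2*, a gene of the hindbrain segments, at −0.41 (adjusted p = 0.19), *Ets1*, an ETS factor gene of crest and endothelium, at −0.36 (adjusted p = 0.13), and *Tbx1*, a T-box gene of the pharynx, at −0.30 (adjusted p = 0.43, all from limma). Averaged over its probes, *Ets1* had a difference of −0.068 (adjusted p = 0.94). In these 3 and in *Ier3* (−0.22, adjusted p = 0.62) the mutant pools were below the wildtype pools, as for 5.46% of all probes. Of the early response genes, *Egr1*, *Egr3*, *Ier3* and *Junb* were above the background level, and *Fos* and *Ier2* below it. *Mycn* was below it too, with its mutant pools above its wildtype pools (difference 0.11).

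Markers of the regions where Fgf ligands are used were set beside these values. The marker lists were chosen with earlier results of these data known, and 0.0442% of all probes passed the test. Of 8 measured genes of the midbrain-hindbrain boundary (6 above the background level), *En1* fell by 0.76 (adjusted p = 0.020 from limma) and the rest did not pass. The summed intensity of this list was 8203 to 8713 in wildtype and 6582 to 8503 in mutant pools. Of 7 measured forebrain genes (4 above), *Fezf1* fell by 0.98 (adjusted p = 0.0059), and the summed intensity of the list was 4072 to 4131 in wildtype and 3209 to 3645 in mutant pools. *Fezf1*, *Fezf2* and *Rax* had mutant pools below all wildtype pools, while *Otx2* and *Lhx2* had differences of 0.055 and 0.013. In the boundary list the pool sums overlapped, but they were made up mostly of *Gbx2*, by far its brightest gene (means of 12.56 and 12.47, difference −0.084). *Wnt1* and *Lmx1b* had differences of 0.098 and 0.092. Both were close to the background level, and the wildtype mean of *Lmx1b* (7.43) was below it, so that little could be read from them. Of 10 measured genes of the primitive streak, tail bud and presomitic mesoderm (8 above), none passed. The summed intensity of this list was 12281 to 13574 in wildtype and 13930 to 16133 in mutant pools. Its brightest gene was *Cdx2* (means of 12.2 and 12.5), which weighs most in these sums. *Cdx2* had a difference of 0.32 and *Wnt5b* of 0.25 there, both without overlap (adjusted p = 0.50 and 0.74). *Tbx6* went the other way (difference −0.13), with overlap. Of 6 measured somite genes (5 above), none passed, with sums of 2894 to 3550 in wildtype and 2301 to 2762 in mutant pools. *Tcf15* had a difference of −0.52 and *Foxc2* of −0.36, both without overlap (adjusted p = 0.27 and 0.14). *Meox1* had a difference of −0.28, with overlap. Those of *Uncx*, *Ripply2* and *Pax3* were 0.020, −0.0097 and −0.058, also with overlap, and *Pax3* was below the background level. Of 6 node genes *Nodal*, *Shh* and *Chrd* fell by 1.08, 0.86 and 0.52 (adjusted p at most 0.011 from limma). The authors had already reported these genes as lowered on the same arrays, so this is no new finding. For *Foxa2*, *Foxj1* and *Noto* the genotypes overlapped, with differences of −0.11, −0.017 and 0.0018. The node list summed to 2177 to 2409 in wildtype and 1498 to 1596 in mutant pools. The heart field list (7 measured, 5 above) summed to 5346 to 5974 and 4364 to 5653. Of its brightest genes, *Myl7* had a difference of −0.53, with overlap (adjusted p = 0.76 from limma), and *Isl1* of 0.039. The other heart field genes had differences of −0.12 to −0.038. The trophoblast and decidua list (10 measured, 6 above) summed to 4687 to 5183 and 4522 to 5037, with *Tpbpa*, *Elf5*, *Cts7* and *Psg17* below the background level. The part of these regions, or of a difference in stage between pools, in the values of the Fgf genes was not tested.

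The differences of single genes were set against those under 16 alternatives of scaling, variance model, probe choice and left-out pools. *Fgf15* ran from −0.38 to −0.21, *Fgf7* from 0.20 to 0.36, *Fgf8* from 0.088 to 0.26 and *Dusp6* from 0.083 to 0.23. None of these 4 passed an adjusted p of 0.05 in any of the 16, and the lowest adjusted p was 0.35, for *Fgf15*.

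**Figure D5:**
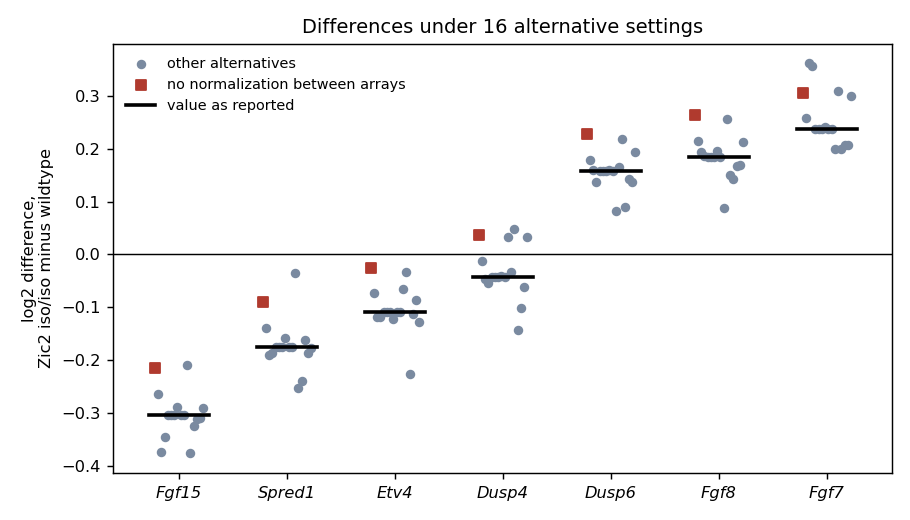
Difference between genotypes on the log2 scale (vertical axis, Zic2 iso/iso minus wildtype) of 7 genes under 16 alternative settings (points, with the setting without normalization between arrays as squares) and as reported (horizontal bars). Fgf15, Spred1 and Etv4 stay below 0 and Dusp6, Fgf8 and Fgf7 above 0 in each setting, while Dusp4 lies on both sides.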

How the data were processed

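The authors hybridised RNA of 6 pools to Illumina Mouse WG6 v2 arrays and deposited 1 linear probe intensity for each of 45281 probes and pool. Minima of 104 to 122 and medians of 154 to 187 show a linear scale, so the VSN step that the methods name was not part of them. Scanner software is not given in the sources used here. The number of arrays limits the precision.

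Values under 1 were set to 1, log2 was taken and the arrays were quantile normalised. All probes were fitted with limma 3.58.1 (lmFit and eBayes) in R 4.3.3 without covariates and adjusted by Benjamini-Hochberg (threshold 0.05). Symbols came from the platform annotation (34885 probes with 1 symbol, 18 with several, 10378 with none) and gene order from RefSeq GRCm38.p6. The background level used 1608 probes for beta-defensins, keratin-associated proteins, olfactory receptors and vomeronasal receptors. The steps were tested on simulated data.

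Genes named were those past the threshold, the 10 largest differences above background, a list of ligands, receptors and response genes, the 3 largest of each further list, and *Zic2*. Other genes were named after their values were seen. The members and lists were chosen with earlier results of these data known. Groups came from the sample titles. Same-numbered pools did not deviate together (Pearson's r across probes −0.12, −0.021 and −0.12), so no block was used.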

Additional observations from a re-analysis of the deposited data

How the results depend on the processing

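The counts of ligand, receptor and response genes past the threshold stayed at 0 under 17 alternatives, with the replicate block among them (0 each), and so did that of the 20 other response genes, whose alternatives were chosen after seeing the data. The count of transduction genes was 1 (*Flrt1*) with normexp background correction, variance stabilising normalization, an intensity trend or a threshold of 0.10, and 0 otherwise. Without normalization between arrays, where the median over all probes was 0.052, the class medians were 0.060 (ligands), 0.16 (receptors) and 0.093 (response genes), and the sign turned for *Fgf17* (0.033), *Fgf18* (0.045), *Fgf10* (0.017), *Fgf14* (0.054), *Spry2* (0.016) and *Dusp4* (0.037). With dim probes left out, fewer genes gave medians of 0.032 (ligands) and 0.063 (response genes). The sign of *Fgf14* also turned with median centring (0.0047), variance stabilising normalization (0.0092) and arrayWeights (0.0053), that of *Fgfrl1* with arrayWeights (−0.0018), and those of *Il17rd* (−0.035), *Fgf18* (0.050) and *Dusp4* (0.034) with the mean of all probes of a gene. With each pool left out in turn the medians ran from −0.0059 to 0.033 (ligands), 0.077 to 0.17 (receptors, highest without *Zic2* iso/iso pool 3) and −0.00098 to 0.052 (response genes). The differences ran from −0.12 to 0.0013 for *Fgf4*, −0.10 to 0.049 for *Fgf17*, −0.028 to 0.019 for *Fgf18*, −0.031 to 0.041 for *Fgf14*, −0.037 to 0.12 for *Fgfr1*, −0.039 to 0.032 for *Fgfrl1*, −0.039 to 0.016 for *Spry2*, −0.016 to 0.19 for *Spry4* and −0.14 to 0.049 for *Dusp4*. Without a turn of sign they ran from 0.024 to 0.18 for *Fgf3*, −0.18 to −0.027 for *Fgf5*, 0.030 to 0.17 for *Fgfr2*, 0.037 to 0.21 for *Fgfr3*, 0.10 to 0.23 for *Etv1* and 0.059 to 0.21 for *Spred2*. The causes were not tested. Of 507 values of single genes, 474 kept their direction and their side of the threshold. Genes at the background level, 14 of the 39, were beyond what these arrays could read.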
